A study of Mus musculus with 6 samples.

Results

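The HoxA cluster was followed through single-cell RNA-seq of mouse limb buds at E11.5, a stage of mid-gestation counted in days after conception. Its members were chosen by name, as HoxA genes with a row in the deposited count matrices, and 10 are reported here of the 15668 genes shared by both matrices. The 8 named at the outset were Hoxa2, Hoxa3, Hoxa5, Hoxa7, Hoxa9, Hoxa10, Hoxa11 and Hoxa13, and Hoxa4 and Hoxa6 also had a row. The 6 libraries came from Dup hindlimbs (homozygous duplication, C57BL/6 strain), C57BL/6 wild-type hindlimbs, Inv1 hindlimbs and Inv1 forelimbs (homozygous inversion), and G4 wild-type hindlimbs and forelimbs. Dup and Inv1 are rearrangements of the Lbx1/Fgf8 locus that model split-hand/foot malformation type 3, and that locus is on another chromosome than the HoxA cluster. G4 is a 129sv/C57Bl6 hybrid embryonic stem cell line, the background in which Inv1 was made, and mutants were therefore compared within a background and limb. Embryos grown from stem cells were made by aggregation with diploid or tetraploid hosts, and a diploid host can leave cells of its own. With 1 library per group no test between groups was possible, how many embryos made up a library was not stated, and ranges in parentheses are 95% intervals that cover counting error only, unless said to be over libraries.

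Hox genes encode homeodomain transcription factors whose order along the chromosome follows the order in which they are used along the body axis. In limb buds the 5′ members of the HoxA and HoxD clusters, the groups numbered from 9 to 13, pattern the proximal to distal axis. Hoxa10 and its paralogues act in the stylopod (upper limb), Hoxa11 in the zeugopod (forearm or lower leg) and Hoxa13 in the autopod (hand or foot). Loss of Hoxa13 impairs the digits in mice, and mutation of human HOXA13 causes hand-foot-genital syndrome. Hoxa11 and Hoxa13 transcripts are known to come to occupy adjoining territories in mouse limb buds, which makes their presence in the same cell a question of its own.

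The cluster lies on the minus strand of chromosome 6, and from Hoxa2 to Hoxa13 it spans 98.5 kilobases at chr6:52112350-52210874 in the mm9 assembly of the files. Hoxa11 (ENSMUSG00000038210) was annotated at chr6:52192107-52196213 and Hoxa13 (ENSMUSG00000038203) at chr6:52207693-52210874, the 5′ end of the cluster. Hoxa7 (ENSMUSG00000038236, chr6:52164490-52171853) and Hoxa9 (ENSMUSG00000038227, chr6:52173099-52181088) lie next to each other in its middle. The annotated span of Hoxa3 runs over Hoxa4, Hoxa5 and Hoxa6 on the same strand, so reads of these 4 genes could be shared, and Hoxa11 overlaps the antisense gene Hoxa11as. Same-strand entries also overlap Hoxa2 (a further Hoxa3 entry) and Hoxa9 (among them Mir196b). The effect of these overlaps on the levels below, those of the 3′ members included, was not tested. The 250 bases upstream of a RefSeq start are shown for the 4 genes on which the results turn. Hoxa11 and Hoxa13 were taken for their separation between cells, and Hoxa7 and Hoxa9 for their shared pattern in hindlimb ectoderm. These windows come from RefSeq on GRCm38.p6 and are written 5′ to 3′ on the minus strand. A RefSeq start need not be the 5′ end of the mm9 span given above, so a window can lie inside that span.
Hoxa11, chr6:52245811-52246060: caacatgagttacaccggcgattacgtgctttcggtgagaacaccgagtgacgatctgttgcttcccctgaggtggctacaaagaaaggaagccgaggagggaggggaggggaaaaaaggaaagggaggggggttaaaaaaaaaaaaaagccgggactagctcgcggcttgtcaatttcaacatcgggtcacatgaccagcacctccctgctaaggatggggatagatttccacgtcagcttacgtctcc
Hoxa13, chr6:52260881-52261130: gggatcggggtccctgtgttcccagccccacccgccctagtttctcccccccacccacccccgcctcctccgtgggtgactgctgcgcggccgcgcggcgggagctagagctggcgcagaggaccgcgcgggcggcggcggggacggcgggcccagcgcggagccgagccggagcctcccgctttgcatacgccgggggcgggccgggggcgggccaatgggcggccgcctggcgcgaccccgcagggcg
Hoxa7, chr6:52218574-52218823: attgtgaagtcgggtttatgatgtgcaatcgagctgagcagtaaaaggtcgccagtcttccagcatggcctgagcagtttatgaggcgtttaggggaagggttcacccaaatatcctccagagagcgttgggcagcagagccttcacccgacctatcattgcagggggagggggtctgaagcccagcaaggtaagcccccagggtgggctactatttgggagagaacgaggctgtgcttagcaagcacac
Hoxa9, chr6:52227371-52227620: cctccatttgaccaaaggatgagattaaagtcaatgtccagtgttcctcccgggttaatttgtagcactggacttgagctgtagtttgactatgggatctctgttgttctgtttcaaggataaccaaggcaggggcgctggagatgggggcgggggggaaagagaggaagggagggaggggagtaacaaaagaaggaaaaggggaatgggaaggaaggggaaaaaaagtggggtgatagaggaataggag
The Hoxa13 window stands out by its base composition, with 80.0% G and C against 52.0% for Hoxa11, 54.8% for Hoxa7 and 49.6% for Hoxa9. A word of posterior HOX sites, CAATAAA, was searched on either strand and occurred in 4.20% of 32851 mouse promoter windows of the same length. A variant of it, TCGTAAA, occurred in 0.478% of them. The core of the TATA box, TATAA, occurred in 22.8%, and the MEIS word TGACAG in 15.9%. None of the 4 windows held a match, so no base is in capitals, which says only that these letters are not in these windows.

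The matrices held 26486 cells, of which 24891 with over 2000 detected genes were kept, with 22660212 to 59403104 UMIs (unique transcript molecules) per library and a median of 6729 to 10100 per cell. Any 2 libraries shared 3 to 14 cell barcodes. Levels are CPM, the UMIs of a gene per 1000000 UMIs of its class, and since the assay counts 1 tag at the 3′ end of each molecule, levels of different genes were compared without scaling to length. The limb labels were matched by their markers in mesenchyme: Pitx1, a hindlimb determinant, was at 216 to 333 CPM in the 4 hindlimb libraries and at 0.839 and 0.427 CPM in Inv1 and G4 forelimbs, whereas Tbx5, its forelimb counterpart, did not exceed 1.07 CPM in any hindlimb library and reached 81.3 and 117 CPM in Inv1 and G4 forelimbs. Genotype labels were checked in the AER (apical ectodermal ridge, the epithelial rim that drives outgrowth), where Btrc was at 345 CPM in Dup against 61.0 CPM in C57BL/6 wild type, at 2316 against 108 CPM in Inv1 and G4 hindlimbs, and at 2115 against 68.8 CPM in Inv1 and G4 forelimbs. Mesenchyme made up 90.0% to 92.9% of cells. Its 6 markers summed to 1274 to 1855 CPM in mesenchyme and to 87.2 to 192 CPM in muscle, and the blood and immune list summed to 633 to 2946 CPM in mesenchyme.

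In mesenchyme the 5′ members of the cluster were far more abundant than the 3′ members. Hoxa10, the most abundant member in all 6 libraries, was at 233.5 CPM in Dup and 285 CPM in C57BL/6 wild-type hindlimbs, 301 and 298 CPM in Inv1 and G4 hindlimbs, and 327 and 374 CPM in Inv1 and G4 forelimbs. Hoxa9 was second everywhere, at 112 CPM in Dup, 149.8 CPM in C57BL/6 wild type, 158 and 137 CPM in Inv1 and G4 hindlimbs, and 157 and 180.0 CPM in Inv1 and G4 forelimbs. These 2 genes thus kept their rank in each library, and the highest Hoxa9 level was below the lowest Hoxa10 level.

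Hoxa13 and Hoxa11 exchanged ranks between libraries. Hoxa13 was at 107 CPM in Dup, 64.6 CPM in C57BL/6 wild type, 118 and 85.8 CPM in Inv1 and G4 hindlimbs, and 112 and 126 CPM in Inv1 and G4 forelimbs. Hoxa11 was at 57.6 CPM in Dup, 89.2 CPM in C57BL/6 wild type, 75.8 and 80.8 CPM in Inv1 and G4 hindlimbs, and 70.7 and 84.1 CPM in Inv1 and G4 forelimbs. Hoxa13 was the more abundant of the 2 in 5 libraries, and the C57BL/6 wild-type hindlimb was the exception. There Hoxa13 was at its lowest and Hoxa11 at its highest level of all 6.

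The 3′ members were low. Hoxa7 was at 17.5 CPM in Dup and 22.8 CPM in C57BL/6 wild type, 13.4 and 17.4 CPM in Inv1 and G4 hindlimbs, and 13.9 and 22.1 CPM in Inv1 and G4 forelimbs. Hoxa5, which patterns the lung and the cervical spine, was at 8.39 to 18.7 CPM, with the top value in the G4 forelimb. Hoxa3, a gene of the pharyngeal arches and thymus, was at 4.95 and 6.96 CPM in Dup and C57BL/6 wild-type hindlimbs, at 7.24 and 9.68 CPM in Inv1 and G4 hindlimbs, and at 10.8 and 14.6 CPM in Inv1 and G4 forelimbs. Every forelimb library was above every hindlimb library for Hoxa3, and also for Hoxa10 (327 and 374 CPM against at most 301 CPM). This separation was not counted over all genes in mesenchyme. In G4 alone, 2637 of 8439 genes were lower in hindlimb than in forelimb past 1.5-fold. Hoxa6 (2.41 to 3.31 CPM), Hoxa4 (0.952 to 2.14 CPM) and Hoxa2 (0.660 to 1.58 CPM) were lower still. Hoxa9, Hoxa10, Hoxa11 and Hoxa13 together held 92.3% to 95.2% of the UMIs of these 10 genes.

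**Figure D1:**
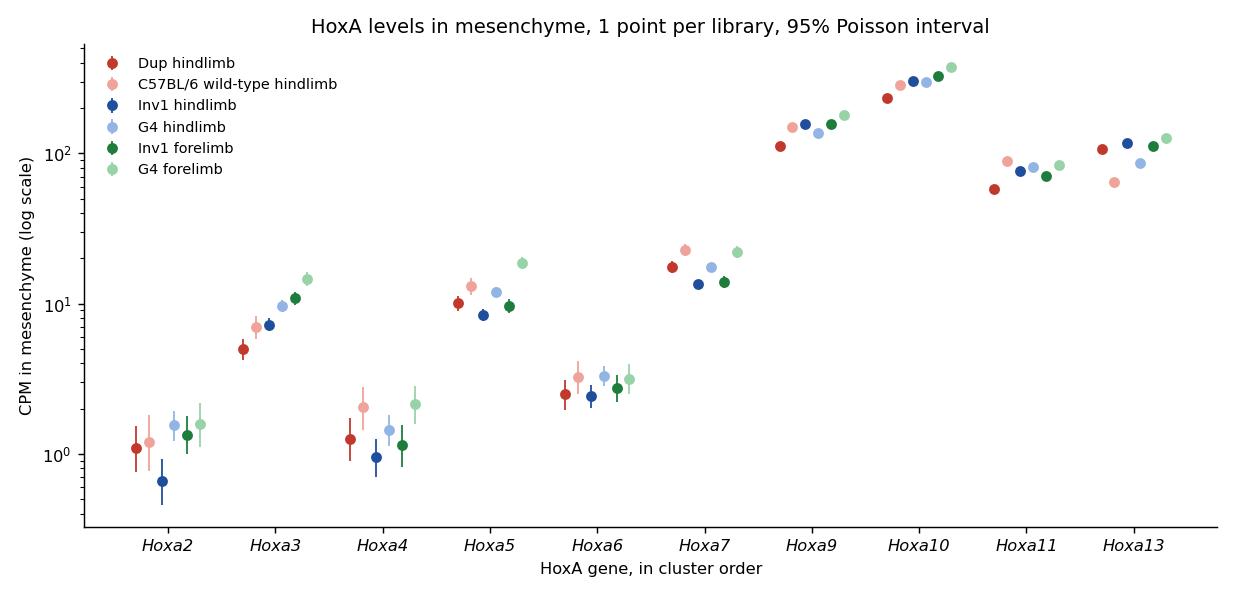
HoxA levels in mesenchyme (CPM, log axis) for each gene in cluster order from Hoxa2 to Hoxa13, 1 point per library with its 95% Poisson interval. Hoxa10 is at the top in every library (233.5 to 374 CPM), and Hoxa2 (0.660 to 1.58 CPM) and Hoxa4 (0.952 to 2.14 CPM) are at the bottom.

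Within mesenchyme, HoxA genes were read in the 6 finer classes deposited for the C57BL/6 pair, which the authors' labels call stylopod, zeugopod and autopod mesenchyme, muscle connective tissue, and stylopod and autopod chondrocyte progenitors. The classes were made from the same cells' expression, so their differences are given as a description. Hoxa13 followed the proximal to distal series, with 13.2, 77.0 and 169 CPM in stylopod, zeugopod and autopod mesenchyme of Dup, and 10.1, 44.8 and 191 CPM in those of C57BL/6 wild type. Its autopod level was thus 12.7 times its stylopod level in Dup (9.99 to 16.5) and 19.0 times in wild type (14.7 to 25.1). The highest Hoxa13 level of all was in autopod chondrocyte progenitors, cells on their way to digit cartilage, at 262 CPM in Dup and 227 CPM in wild type.

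Hoxa11 peaked in the middle segment. It was at 51.2, 125 and 16.3 CPM in stylopod, zeugopod and autopod mesenchyme of Dup, and at 54.2, 177 and 41.1 CPM in those of C57BL/6 wild type. Its autopod level was 0.131 times its zeugopod level in Dup (0.112 to 0.152) and 0.232 times in wild type (0.193 to 0.278). Zeugopod mesenchyme held a Hoxa13 level between those of its neighbours in both libraries, so the class named for the zeugopod contained transcripts of both genes.

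Hoxa10 and Hoxa9 varied much less along this axis. Hoxa10 was at 232, 305 and 189 CPM in stylopod, zeugopod and autopod mesenchyme of Dup, and at 255, 339 and 266 CPM in wild type. Hoxa9 was at 96.7, 133 and 104 CPM in Dup and at 129.5, 170.1 and 145 CPM in wild type. Both were highest in the zeugopod class, 1.31 and 1.37 times their stylopod levels in Dup and 1.33 and 1.31 times in wild type. Hoxa3 ran the other way from Hoxa13, with 7.51, 4.55 and 2.76 CPM from stylopod to autopod in Dup and 8.93, 5.56 and 5.10 CPM in wild type, from 17 to 56 UMIs per class.

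**Figure D2:**
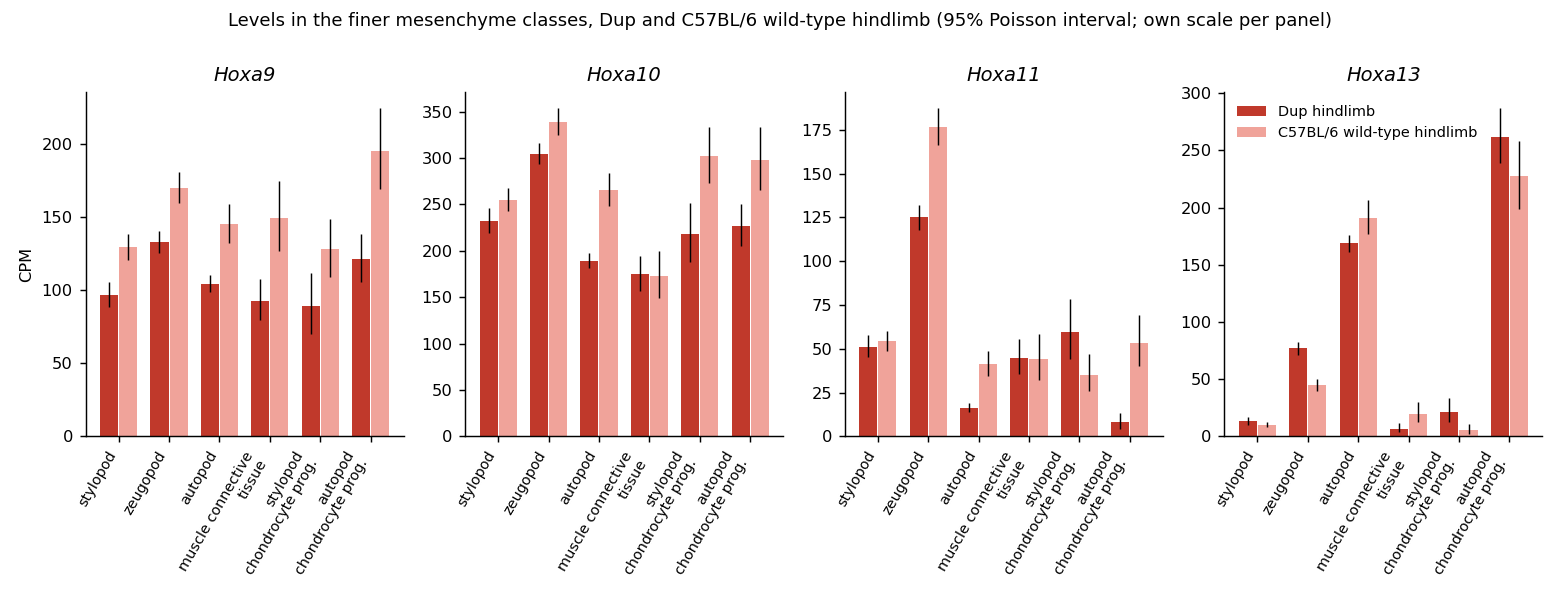
Levels (CPM, each panel on its own axis from 0) of Hoxa9, Hoxa10, Hoxa11 and Hoxa13 in the 6 finer mesenchyme classes of Dup (left bar) and C57BL/6 wild-type hindlimbs (right bar), with 95% Poisson intervals. Hoxa11 is highest in the zeugopod class (125 CPM in Dup, 177 CPM in wild type) and Hoxa13 in both autopod classes.

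Dup hindlimbs were set against C57BL/6 wild type to ask whether the HoxA genes moved with the duplication. In whole mesenchyme Hoxa13 was 1.66 times as high in Dup (1.55 to 1.77) and Hoxa11 was 0.646 times as high (0.604 to 0.691). These were 2 of the 6 members with a mean of 10 CPM or more that lay past 1.5-fold, where 2.66% of all 7966 genes at that level did (57 higher, 155 lower). Hoxa9 (0.745), Hoxa10 (0.821), Hoxa5 (0.770) and Hoxa7 (0.769) were also below wild type, within 1.5-fold. The members' median log2 ratio was -0.38, beside -0.06 over all genes. Hoxa11 came within 1.5-fold when libraries were scaled by the median ratio of all genes (0.686) or when cells with 3 or more markers of another class were left out (0.893), while Hoxa13 was at 1.83 without those cells. That filter took 76.7% of Dup and 92.7% of wild-type mesenchyme cells, mostly through the blood list.

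Dup and wild-type mesenchyme differed in their makeup. Autopod mesenchyme was 34.5% of Dup mesenchyme (33.1 to 36.0) against 16.1% in wild type (14.5 to 17.8), stylopod mesenchyme 18.2% against 34.0%, and zeugopod mesenchyme 31.7% against 31.5%. When the Dup classes were weighted by their wild-type shares, Hoxa13 was at 74.2 CPM in Dup against 64.6 CPM in wild type (1.15 times) and Hoxa11 at 66.6 against 89.2 CPM (0.747 times), so that 0 of the 6 members lay past 1.5-fold. Whether the shares differ between the genotypes or between the dissections cannot be told apart with 1 library each.

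The pair was also compared inside each class. In zeugopod mesenchyme Hoxa13 was at 77.0 CPM in Dup against 44.8 CPM in wild type (1.72 times, 1.49 to 1.98), and Hoxa11 at 125 against 177 CPM (0.707 times, 0.651 to 0.769). In autopod mesenchyme Hoxa13 was at 169 CPM in Dup against 191 CPM in wild type (0.883 times, 0.807 to 0.966), whereas Hoxa11 was at 16.3 CPM in Dup against 41.1 CPM (0.397 times, 0.318 to 0.498). In autopod chondrocyte progenitors Hoxa11 was at 7.91 CPM (14 UMIs) in Dup against 53.1 CPM (54 UMIs) in wild type. Stylopod chondrocyte progenitors ran the other way for Hoxa11, at 59.5 CPM in Dup against 35.2 CPM in wild type (1.69 times, 1.11 to 2.58), and had Hoxa13 at 21.4 CPM (18 UMIs) against 5.36 CPM (7 UMIs). In stylopod mesenchyme both intervals held 1, with Hoxa11 at 51.2 against 54.2 CPM (0.944 times, 0.7999 to 1.113) and Hoxa13 at 13.2 against 10.1 CPM (1.32 times, 0.920 to 1.89). In muscle connective tissue Hoxa11 was at 44.9 CPM in Dup against 43.9 CPM, and Hoxa13 at 6.49 CPM (12 UMIs) against 19.6 CPM (21 UMIs). Hoxa9 was below wild type in all 6 classes, at 0.621 to 0.781 times its level, with every interval under 1.

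Inv1 and G4 hindlimbs showed 0 of 6 members past 1.5-fold in mesenchyme, where 0.843% of 7947 genes lay past it. Hoxa13 was nearest to the limit, at 118 CPM in Inv1 against 85.8 CPM in G4 (1.37 times, 1.32 to 1.43). Hoxa9 was 1.15 times as high in Inv1 (1.11 to 1.19), Hoxa10 1.01 times and Hoxa11 0.938 times. The 3′ members were lower in Inv1, with Hoxa5 at 8.39 against 11.9 CPM (0.703 times), Hoxa7 at 13.4 against 17.4 CPM (0.770 times) and, under the 10 CPM limit, Hoxa2 with 34 against 78 UMIs (0.428 times, 0.277 to 0.648). Finer classes were not used for this pair.

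In forelimbs all 7 members tested were lower in Inv1 than in G4. Hoxa5 was at 9.59 CPM in Inv1 against 18.7 CPM in G4 (0.513 times, 0.444 to 0.593) and Hoxa7 at 13.9 against 22.1 CPM (0.629 times, 0.555 to 0.713), 2 of 7 past 1.5-fold. In this pair 9.64% of 8628 genes lay past 1.5-fold, 796 of them lower, and the median log2 ratio was -0.17 over all genes and -0.25 over the members. Hoxa13, at 112 CPM in Inv1 against 126 CPM in G4 (0.891 times), Hoxa10 (0.875), Hoxa9 (0.872), Hoxa11 (0.841) and Hoxa3 (0.740) lay within 1.5-fold. Scaled by the median ratio of all genes, Hoxa13 was 1.01 times and Hoxa7 0.713 times as high in Inv1, and Hoxa5 alone stayed past 1.5-fold.

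**Figure D3:**
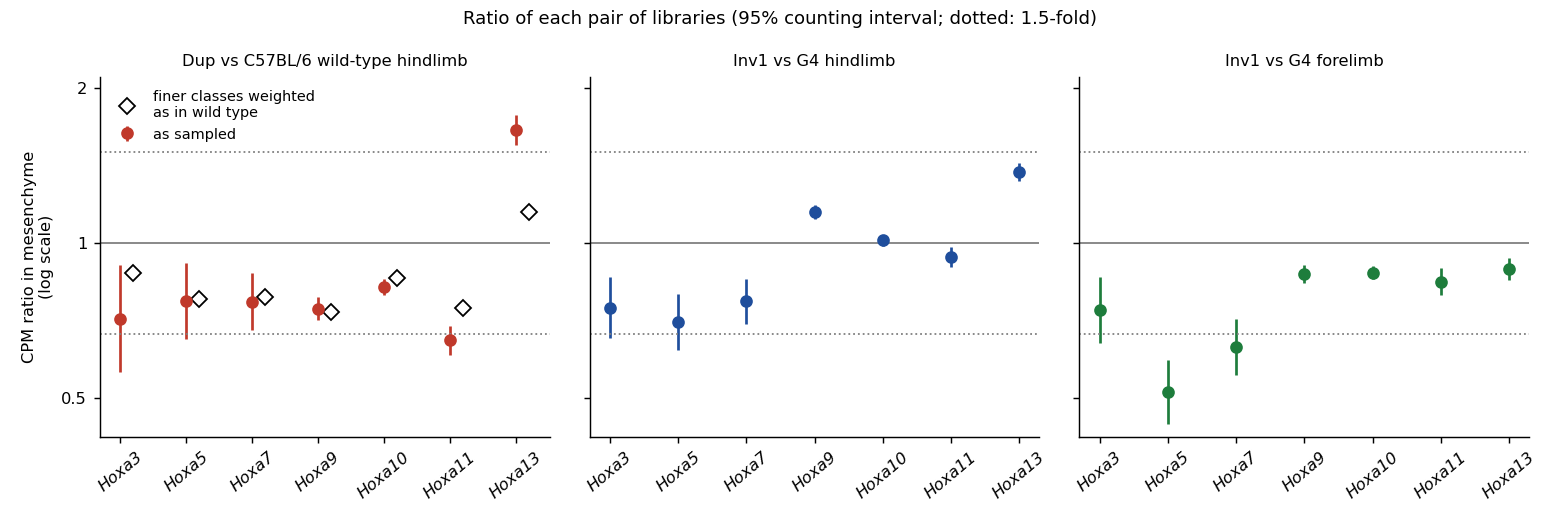
CPM ratio in mesenchyme (log axis) for 7 HoxA genes in Dup over C57BL/6 wild-type hindlimb, Inv1 over G4 hindlimb and Inv1 over G4 forelimb, with 95% counting intervals, a line at 1 and dotted lines at 1.5-fold. Filled points are as sampled, and open diamonds give Dup after weighting its finer classes as in wild type, where Hoxa13 comes to 1.15 rather than 1.66.

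Other genes of the limb axis were read beside these ratios from lists of known HOX partners and segment genes. Among HOX cofactors, Meis1 was at 17.1 CPM in Dup against 59.1 CPM in C57BL/6 wild-type mesenchyme (0.290 times) and Meis2 at 64.7 against 198 CPM (0.326 times), both TALE-class partners that mark the proximal limb. Pbx3 (0.594 times), a further partner of HOX proteins, was also past 1.5-fold, so that 3 of 5 cofactors given here were lower and none higher in Dup, where 155 of all 7966 genes were lower. In Inv1 hindlimbs Meis1 (8.51 against 18.9 CPM in G4) and Meis2 (37.8 against 77.0 CPM) were the 2 of 4 past the fold, both lower, and in Inv1 forelimbs 0 of 2 were past it. The list of proximal limb genes, which holds Meis1 and Meis2 again, had 5 of 6 lower in Dup, 4 of 6 lower in Inv1 hindlimbs (27 of all 7947 genes) and 1 of 2, Shox2, lower in Inv1 forelimbs (796 of 8628), with Pkdcc, a secreted kinase, at 35.4 against 98.3 CPM in the Dup pair and 23.7 against 45.5 CPM in the Inv1 pair. Of 4 distal limb genes, 1 (Hoxd13) was higher in Dup (57 of all 7966 genes) and 1 (Lhx9) was lower in Inv1 forelimbs (796 of 8628). In Inv1 hindlimbs 0 of 4 were past the fold (median log2 ratio -0.33), where 0.843% of all genes were. The Dup ratios of these genes, and of the HoxD genes below, are as sampled, from mesenchyme with a smaller stylopod and larger autopod share than wild type. With finer classes weighted as in wild type, 39 genes were higher and 39 lower past the fold, of 8009, and these lists were not recounted. The part of the makeup in these ratios, and of these genes in the Hoxa13 ratios, was not tested.

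Among HoxD paralogues 2 of 5 were higher past the fold in Dup, where 57 of all 7966 genes were. In Inv1 hindlimbs 0 of 5 were higher (40 of all 7947 genes), and in Inv1 forelimbs 0 of 5 (36 of 8628). Hoxd13, which acts with Hoxa13 in digits, was at 142 CPM in Dup against 74.6 CPM in C57BL/6 wild type (1.91 times, 1.80 to 2.03), and Hoxd12 at 70.2 against 40.5 CPM (1.73 times, 1.60 to 1.88). In Inv1 they were 1.40 and 1.28 times G4 in hindlimbs, and 0.833 and 1.09 times G4 in forelimbs. Hoxd9 was lower in all 3 mutant libraries, at 0.608 times wild type in Dup, 0.533 times in Inv1 hindlimbs and 0.543 times in Inv1 forelimbs. Hoxd10 and Hoxd11 were within 1.5-fold in every pair. Of autopod genes tied to Hoxa13, Bmp2, a signal needed for digit shaping, was at 20.2 against 9.11 CPM in the Dup pair and 25.0 against 15.5 CPM in the Inv1 hindlimb pair, while Epha7, an ephrin receptor, was at 26.0 against 54.1 CPM in the Dup pair. In the forelimb pair 3 of 6 of these were lower in Inv1 (Epha7, Sall1 and Sall3), where lower calls made up most of the background. Genes that flank the cluster were past 1.5-fold in 0 of 7 tested in Dup, 0 of 7 in Inv1 hindlimbs and 0 of 6 in Inv1 forelimbs. The same was true of 8 Polycomb and trithorax genes, chromatin regulators of Hox clusters, in each pair. Over all genes 2.66%, 0.843% and 9.64% were past 1.5-fold in these 3 pairs, so 0 of so few genes is near the background.

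Hindlimb and forelimb mesenchyme were compared within each genotype. In G4, all 7 members tested were lower in hindlimb, with Hoxa3 at 9.68 against 14.6 CPM in forelimb (0.662 times, 0.576 to 0.763) and Hoxa5 at 11.9 against 18.7 CPM (0.639 times, 0.564 to 0.725) past 1.5-fold. These 2 of 7 stand beside a background of 31.9% of 8439 genes, 2637 of them lower in hindlimb, with a median log2 ratio of -0.33 over all genes and -0.39 over the members. In Inv1, 0 of 5 members lay past 1.5-fold, where 3.37% of 8188 genes did, and Hoxa13 (1.05 times), Hoxa11 (1.07 times) and Hoxa9 (1.00 times) were nearly equal between the limbs. Hoxa3, under the limit of 10 CPM there, was again lower in hindlimb (0.670 times, 0.579 to 0.774). Between the wild-type hindlimbs, G4 over C57BL/6, 0 of 6 members and 7.73% of 7993 genes lay past 1.5-fold, and Hoxa13 was at 85.8 CPM in G4 against 64.6 CPM in C57BL/6 (1.33 times, 1.25 to 1.42). The difference between these wild types in Hoxa13 was therefore similar in size to that between Inv1 and G4 hindlimbs.

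The AER and dorso-ventral ectoderm gave the widest gaps between limbs in CPM, and other classes are given after them. In the AER, Hoxa9 was at 166 CPM in Dup, 168 CPM in C57BL/6 wild type, 163 CPM in Inv1 and 167 CPM in G4 hindlimbs, against 2.58 and 13.8 CPM in Inv1 and G4 forelimbs, where it had 1 UMI each. Hoxa7 was at 153.5, 142, 109.9 and 119 CPM in those 4 hindlimb libraries, against 0 UMIs in the Inv1 forelimb and 1 UMI (13.8 CPM) in the G4 forelimb. All hindlimb libraries lay above both forelimb libraries for both genes, and the 4 hindlimb levels, mutants and wild types alike, were close to each other (Hoxa9 0.991 times wild type in Dup, 0.569 to 1.71, and 0.972 times G4 in Inv1, 0.681 to 1.41). The AER held 25, 16, 82 and 33 cells in Dup, C57BL/6, Inv1 and G4 hindlimbs and 39 and 10 cells in Inv1 and G4 forelimbs.

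As a ratio, Hoxa9 in the AER was 63.0 times as high in Inv1 hindlimb as in Inv1 forelimb (11.1 to 2509) and 12.1 times as high in G4 hindlimb as in G4 forelimb (2.07 to 490.2). Hoxa7 was 14.2-fold higher in Inv1 hindlimb when the forelimb library, at 0 UMIs, was set to a floor of 3 counts. The exact interval of that ratio starts at 11.25. In G4 hindlimb Hoxa7 was 8.64 times as high (1.44 to 352). Of all 8139 genes with a mean of 10 CPM in the AER, 6.82% were higher and 11.7% lower in each hindlimb than in both forelimb libraries. Hoxa7, Hoxa9 and Hoxa10 reached that mean only through the hindlimb libraries, so their number among the higher genes was fixed by the limit and is not read. Hoxa10 had few UMIs, at 38.4, 117, 12.0 and 26.0 CPM in Dup, C57BL/6, Inv1 and G4 hindlimbs against 7.75 and 0 CPM in Inv1 and G4 forelimbs.

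Dorso-ventral ectoderm, the surface epithelium around the ridge, repeated this. Hoxa9 was at 156.5 CPM in Dup, 270 CPM in C57BL/6 wild type, 234 CPM in Inv1 and 266 CPM in G4 hindlimbs, against 8.78 and 11.3 CPM in Inv1 and G4 forelimbs, which is 26.7 times higher in Inv1 hindlimb (11.3 to 82.9) and 23.6 times in G4 (7.95 to 115.1). Hoxa7 was at 54.8, 54.0, 49.2 and 78.6 CPM in the 4 hindlimb libraries, against 1.76 CPM in the Inv1 forelimb and 0 UMIs in the G4 forelimb, at least 6.97-fold higher in G4. In this class 8.75% of 7906 genes were higher and 11.7% lower in each hindlimb than in both forelimb libraries, and Hoxa7 again passed the limit only through the hindlimbs, where Hoxa9 was also high, so no count of members is read. Hoxa10 overlapped between the limbs, with 17.7 to 81.0 CPM in hindlimbs and 24.6 and 33.8 CPM in Inv1 and G4 forelimbs. In Dup, Hoxa9 of this class was below wild type (0.580 times, 0.402 to 0.843, from 11 wild-type cells). Other classes separated the limbs at lower levels. Keratinocytes had Hoxa7 at 16.75 to 59.6 CPM in hindlimbs against 0 UMIs in forelimbs. Their Hoxa9 was at 33.5 to 119 against 0 and 16.3 CPM in Inv1 and G4 forelimbs. Endothelial Hoxa7 (12.95 to 30.7 against 3.78 and 7.87 CPM) and immune and neuronal Hoxa9, from few UMIs, did not overlap. Endothelial Hoxa9 and immune and neuronal Hoxa7 did. These separations were not counted over all genes.

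Hoxa7, and to a lesser degree Hoxa9, stood higher in hindlimb ectoderm than in hindlimb mesenchyme. Its level in hindlimb AER was 624% to 876% of that in mesenchyme of the same library, and in dorso-ventral ectoderm 237% to 452%. For Hoxa9 these were 103% to 149% and 140.1% to 194%. Hoxa10 in hindlimb AER stood at 3.995% to 41.11%, in each library below the level of the mesenchyme markers relative to mesenchyme. Mesenchyme markers in those cells summed to 36.7% to 53.9% (AER) and 5.33% to 20.0% (dorso-ventral ectoderm) of their mesenchyme level over the 6 libraries. Msx1 is 1 of the 6 markers, and the sum was not split by gene. A marker transcribed by the AER itself would raise that sum, so it does not measure mesenchyme RNA in AER cells. In immune cells, given for comparison and not as a background free of these genes, Hoxa7 reached at most 16.6 CPM and Hoxa9 64.4 CPM. Thinned to 4000 UMIs per cell, 31.8% to 52.6% of AER cells in the hindlimb libraries held a Hoxa7 UMI, against 0% and 9.13% in Inv1 and G4 forelimbs (0 of 39 cells in Inv1, which allows up to 9.03%, and 1 of 10 cells in G4). Unthinned, a Hoxa7 UMI was found in 15 of 25 AER cells of Dup, 13 of 16 of C57BL/6, 41 of 82 of Inv1 and 17 of 33 of G4 hindlimbs. Hoxa11 and Hoxa13 had at most 6 UMIs in the AER of any library.

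**Figure D4:**
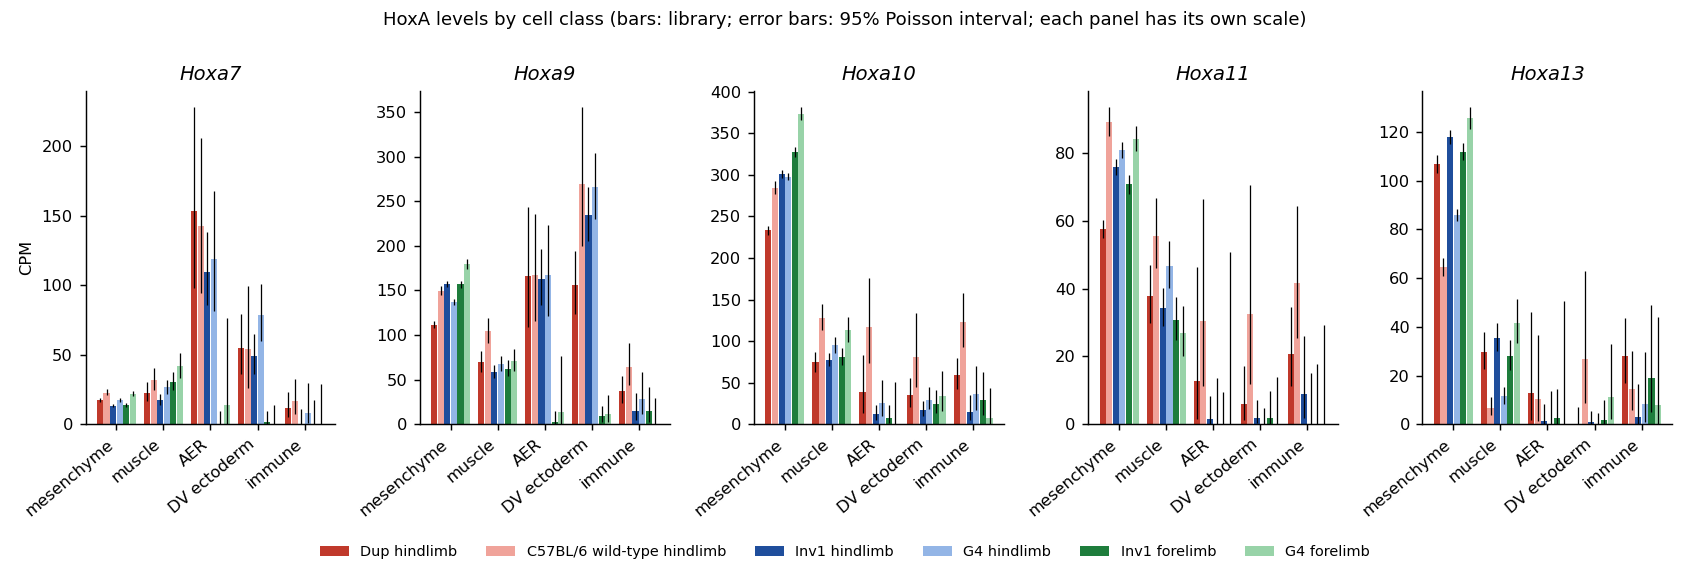
Levels (CPM, each panel on its own axis from 0) of Hoxa7, Hoxa9, Hoxa10, Hoxa11 and Hoxa13 in mesenchyme, muscle, AER, dorso-ventral (DV) ectoderm and immune cells, 1 bar per library with its 95% Poisson interval. Hoxa9 in the AER and DV ectoderm is at 156.5 to 270 CPM in hindlimb and at 2.58 to 13.8 CPM in forelimb libraries, and Hoxa11 and Hoxa13 are highest in mesenchyme.

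Muscle cells, progenitors that migrate into the bud from the somites, carried HoxA transcripts as well. Hoxa10 was at 74.4 to 128 CPM, Hoxa9 at 58.9 to 105 CPM and Hoxa11 at 26.8 to 55.6 CPM over the libraries. Hoxa13 was at 29.5 CPM in Dup against 6.65 CPM in C57BL/6 wild type (61 and 14 UMIs, 4.43 times, 2.45 to 8.58). It was at 35.5 CPM in Inv1 against 11.4 CPM in G4 hindlimbs (156 and 44 UMIs, 3.11 times, 2.21 to 4.45), and at 28.0 against 41.6 CPM in Inv1 and G4 forelimbs (84 UMIs each, 0.672 times, 0.491 to 0.921). Hoxa13 in muscle was thus higher in the mutant in each hindlimb pair and lower in the forelimb pair. How many of all genes in muscle did the same was not counted, so these ratios have no background.

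Immune cells, expected to lack Hoxa13, are set beside these muscle values. In immune cells Hoxa13 was at 28.0 CPM in Dup against 14.6 CPM in C57BL/6 wild type, at 2.97 against 8.16 CPM in Inv1 and G4 hindlimbs, and at 19.2 against 7.90 CPM in Inv1 and G4 forelimbs, from 1 to 19 UMIs. After thinning, 9.20% of Dup muscle cells (5.48 to 14.3) and 9.58% of Dup immune cells (3.18 to 21.0) held a Hoxa13 UMI, with median depths of 9760 and 10860 UMIs. The shares were 2.20% of muscle and 5.43% of 29 immune cells in C57BL/6, and 3.53% and 4.77% of 19 immune cells in G4 hindlimbs, so in these 3 libraries no muscle share above the immune one was detectable. In Inv1 hindlimbs the shares were 11.9% of muscle cells (8.32 to 16.4) and 1.07% of 27 immune cells (upper bound 14.7), at median depths of 15230 and 11870 UMIs. In forelimbs 9.98% of Inv1 and 13.4% of G4 muscle cells held one, against 7.71% of 11 and 4.15% of 13 immune cells. Immune cells are not a matched background, since mesenchyme markers stood there at 24.6% of their mesenchyme level in Dup, 35.7% in C57BL/6, 11.2% and 4.34% in Inv1 and G4 hindlimbs, and 11.9% and 3.83% in Inv1 and G4 forelimbs. In muscle they stood at 11.53% in Dup, 14.2% in C57BL/6, and 6.84% to 8.22% in the other 4 libraries, and Hoxa13 at 27.6% in Dup, 10.3% in C57BL/6, 30.1% and 13.3% in Inv1 and G4 hindlimbs, and 25.0% and 33.1% in Inv1 and G4 forelimbs. The part of free RNA in muscle Hoxa13 was not tested.

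The last question was whether Hoxa11 and Hoxa13 share cells. Mesenchyme cells with 4000 or more UMIs were thinned to 4000, and the number with a UMI of both genes was set against the product of both shares, as a description, since cells of 1 library are not replicates. Cells with both made up 2.87% of Dup and 2.48% of C57BL/6 wild-type cells, 2.99% and 2.63% in Inv1 and G4 hindlimbs, and 2.11% and 3.39% in Inv1 and G4 forelimbs. Observed over expected was 0.571 in Dup (0.474 to 0.681) and 0.612 in C57BL/6 wild type (0.454 to 0.808), 0.466 and 0.505 in Inv1 and G4 hindlimbs, and 0.361 and 0.481 in Inv1 and G4 forelimbs. All 6 values, intervals included, were under 1, so the genes met in a cell less often than their shares alone give, yet did meet in 49.4 to 161 thinned cells per library.

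The share of cells with Hoxa11 went down with each added Hoxa13 UMI from 0 to 2. Of Dup cells with 0, 1, 2 and 3 or more Hoxa13 UMIs, 20.7%, 11.05%, 8.76% and 6.63% held Hoxa11, and of C57BL/6 wild-type cells 27.2%, 17.9%, 13.6% and 4.46%. In Inv1 hindlimbs the series was 25.5%, 11.1%, 6.93% and 5.18%, and in G4 hindlimbs 26.8%, 13.2%, 9.08% and 8.62%. In Inv1 forelimbs it was 24.9%, 8.00%, 4.77% and 5.28%, and in G4 forelimbs 28.7%, 12.5%, 9.97% and 6.67%. Hoxa10 changed far less, at 55.6% to 71.9% of cells at every Hoxa13 number in all 6 libraries. It went down at each step from 0 to 2 only in G4 forelimbs (71.9%, 66.7% and 66.0%) and G4 hindlimbs (65.1%, 63.8% and 63.6%).

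No other pair of the 6 more abundant members had an interval under 1 in more than 1 library. Over the 14 other pairs, the median ratio of the 6 libraries was 0.926 to 1.72. Given as ranges over the libraries, Hoxa7 and Hoxa13 were lowest (0.753 to 1.01) and Hoxa5 and Hoxa7 highest (1.36 to 2.56). Hoxa10 was found with Hoxa11 more often than the product of shares (1.15 to 1.25, all 6 intervals above 1), and with Hoxa13 about as often (0.949 to 1.03). Hoxa9 and Hoxa10, neighbours in the cluster, were at 1.06 to 1.09.

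**Figure D5:**
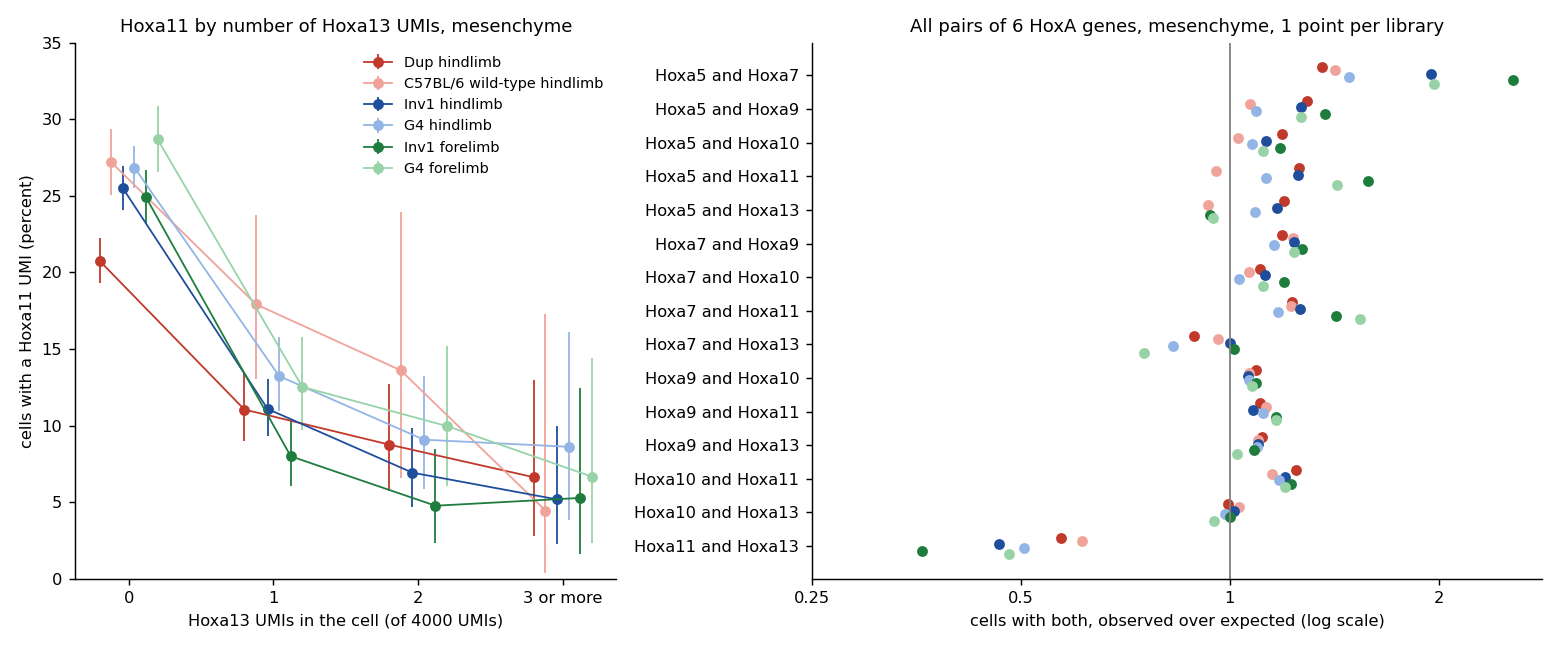
Left, percent of mesenchyme cells with a Hoxa11 UMI by the number of Hoxa13 UMIs in the cell, after thinning to 4000 UMIs, 1 line per library with 95% binomial intervals. Right, observed over expected number of cells with both genes (log axis, line at 1) for all pairs of 6 HoxA genes, 1 point per library, where Hoxa11 and Hoxa13 lie at 0.361 to 0.612 in all 6 libraries.

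Co-detection was also read inside segments. When the expected number was summed over the finer classes, it went from 213 to 158 cells in Dup and from 80.8 to 67.6 in C57BL/6 wild type. The observed cells were the same, 121.5 and 49.4. The ratio was then 0.769 in Dup (0.638 to 0.918) and 0.731 in wild type (0.542 to 0.966). Both were nearer to 1 than in whole mesenchyme (0.571 and 0.612), with intervals still under 1. In zeugopod mesenchyme it was 0.706 in Dup (0.553 to 0.889) and 0.742 in wild type (0.488 to 1.08), and in autopod mesenchyme 0.861 (0.610 to 1.18) and 0.537 (0.266 to 0.968). In stylopod mesenchyme it was above 1, at 1.22 (0.423 to 2.76) and 1.18 (0.327 to 3.01), from 4.48 and 3.43 expected cells. The other finer classes lay on both sides of 1 (0 to 3.36), from at most 6.71 expected cells. Muscle was at 0.806 to 1.66 over the libraries. All intervals of these classes held 1. Cells with both genes were mostly of the zeugopod class, 59.8% in Dup and 53.9% in wild type, with 31.4% and 21.7% in the autopod class. Without thinning, when deep cells count more, the ratio for whole mesenchyme was 0.671 in Dup against 0.866 (0.746 to 1.00) in wild type, 0.632 and 0.671 in Inv1 and G4 hindlimbs, and 0.515 and 0.634 in Inv1 and G4 forelimbs. Doublets were treated as the authors left them, and their part in the cells with both genes was not tested.

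Sharing of cells with other limb genes is given again as ranges over libraries. With Hoxa13, Hoxd13 (1.38 to 2.88), Hoxd12 (1.29 to 2.64), and the distal genes Msx1 (1.42 to 1.77) and Lhx2 (1.21 to 2.12) were shared more often than the product of shares in all 6 libraries. Meis1 (0.0520 to 0.246), Shox2, a stylopod and zeugopod gene (0.253 to 0.450), and Hoxd9 (0.456 to 0.682) were shared less often, intervals included. Hoxa11 was the opposite for Hoxd13 (0.351 to 0.594) and Hoxd9 (1.19 to 1.66). Hoxd11, the paralogue that shapes the zeugopod with Hoxa11, was at 0.996 to 1.26 with Hoxa11 and at 0.944 to 1.60 with Hoxa13, with an interval above 1 in 3 of 6 libraries for each, among them Dup (1.23), C57BL/6 wild type (1.60) and G4 hindlimbs (1.34) for Hoxa13.

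Over 35 library and class units with 30 or more cells, and among 6078 genes, Hoxa13 was most like Hoxd12 (Pearson r = 0.92), Hoxd13 (0.91), the unnamed gene ENSMUSG00000109697 (0.88), Lnp (0.88) and Hoxd11 (0.85), of which Lnp neighbours the HoxD cluster. Hoxa11 was most like Dnm3os (0.90), Dact3 (0.89), Emid2 (0.89), Homer2 (0.89) and Scx (0.88), a tendon progenitor factor, while Hoxa11 and Hoxa13 correlated at 0.59. The units share libraries and contrast mesenchyme with other classes, so these correlations of log2(CPM + 10) describe likeness only.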

How the data were processed

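Dissected E11.5 limb buds were profiled by 10x Chromium 3′ single-cell RNA-seq, 1 library per group. The authors aligned reads and counted UMIs with Cell Ranger version 3 (their notes name mm9 and mm10), limited cells to 10% mitochondrial UMIs and a Scrublet score of 0.2, integrated the libraries and annotated cell classes. The deposited values used here are UMI counts, a whole number for each gene in each cell and not normalized, with the authors' class and, for the C57BL/6 pair, finer mesenchyme class. Another matrix of the G4 and Inv1 hindlimbs was not used as counts, and 13 columns were not used.

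Cells with over 2000 detected genes were kept. Counts were summed by library and class over the 15668 genes shared by both matrices and given as CPM. With 1 library per group no test was run. Intervals are exact 95% Poisson, Clopper-Pearson or conditional binomial ones and cover counting error only. Ratios past 1.5-fold were counted among genes with a mean of 10 CPM over the pair, and 3 counts served as the floor. For co-detection, mesenchyme cells were thinned to 4000 UMIs, and the values are means over all possible draws, so numbers of cells need not be whole. The scripts were tested on simulated data. The named genes are the HoxA members, any gene of the lists of HOX cofactors, HoxD paralogues, cluster neighbours, autopod, chromatin, proximal and distal genes, and the 5 genes most like Hoxa11 and Hoxa13 among those with a mean of 20 CPM. Some genes of the cluster and of the lists are not reported here. Members and lists were chosen with earlier results of these data known. Identifiers were named from GENCODE, and promoter windows came from RefSeq on GRCm38.p6, with no conversion between builds. Alternatives changed the scaling, the cell filter, the fold, the lower limit, the class weights, the annotation and the thinning. Python 3.11.15, numpy 2.4.6, pandas 2.3.3 and scipy 1.17.1 were used.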

Additional observations from a re-analysis of the deposited data

Results flagged for a closer look

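Effects of Inv1 over G4 pointed in opposite directions in hindlimb and forelimb for 3 values, and the difference between the limbs was not tested, since each limb gives 1 library per genotype. Hoxa13 in mesenchyme was 1.374 times as high in Inv1 as in G4 in hindlimbs and 0.8905 times in forelimbs. Hoxa9 in mesenchyme was 1.149 times as high in Inv1 hindlimbs and 0.8719 times in Inv1 forelimbs. Hoxa13 in muscle was 3.109 times as high in Inv1 hindlimbs and 0.6723 times in Inv1 forelimbs. Scaled by the median ratio of all genes, the forelimb values in mesenchyme were 1.01 for Hoxa13 and 0.9887 for Hoxa9.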

How the results depend on the processing

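No paired analysis was possible because each group has 1 library. For the Dup pair, the number of members past 1.5-fold was 2 as reported, 1 with median-of-ratios scaling, 1 with mean CPM per cell, 0 with Dup weighted by wild-type finer classes, 0 at a fold of 2, and 3 with no lower limit (Hoxa13 higher, Hoxa4 and Hoxa11 lower). For Inv1 hindlimbs it was 2 with no lower limit (Hoxa2 and Hoxa4, both lower) rather than 0. For Inv1 forelimbs it was 1 with median-of-ratios scaling, 0 at a fold of 2 and 3 with no lower limit, rather than 2. Without cells holding 3 or more markers of another class (37.6% to 92.7% of mesenchyme, through haemoglobin), the Dup count stayed 2 but the genes were Hoxa13 and Hoxa5; the same filter without the blood list, chosen after seeing the data, took 0.0963% to 1.68% of cells.

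The Hoxa11 and Hoxa13 ratio of observed to expected cells stayed under 1 in all 52 alternatives, at 0.223 to 0.866. Not thinned, it was 0.8661 in C57BL/6 wild type, 0.6318 and 0.6713 in Inv1 and G4 hindlimbs, and 0.5151 and 0.6343 in Inv1 and G4 forelimbs. With 2 or more UMIs asked of each gene, unthinned, it was 0.2225 in Dup but 0.7295 in C57BL/6 wild type (0.5279 to 0.9826), 0.3441 and 0.3718 in Inv1 and G4 hindlimbs, and 0.2419 and 0.3407 in Inv1 and G4 forelimbs. Expected within finer classes it was 0.7688 in Dup. Without mixed cells it was 0.409 in C57BL/6 wild type, from 147 cells and with an interval that crosses 1 (0.059 to 1.385). Of 126 alternatives for single ratios, 104 moved by less than their interval and 22 by more. A change of direction was looked for only in ratios past 1.5-fold as reported, and none of these changed. Ratios within the fold could cross 1, as Hoxa13 in Inv1 forelimbs did with median-of-ratios scaling. The causes were not tested. The second annotation for the Dup pair and the forelimbs, and finer classes for the Inv1 pairs, were not run. Depth limits Hoxa2, Hoxa4 and Hoxa6 and the ectodermal classes.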
